A study of Mus musculus with 3 samples.

Results

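Glycolysis enzymes and hypoxia response genes were followed in 4T1 mouse mammary cancer cells exposed to MSCs. The list held 37 genes in 4 roles: 16 glycolytic enzymes, 6 regulators of glycolytic flux and lactate export, 5 HIF subunits and oxygen sensors, and 10 HIF targets. They were found on the array as every probe set whose annotation gives the gene as its only symbol. This gave 76 probe sets for 32 genes, out of 34945 probe sets with 1 symbol and 18193 genes in all. Gapdh and Bnip3l lie only on probe sets that the annotation gives to several genes and have no value here, and Gpi1, Eno1 and Pfkfb1 were not analysed here.

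Glycolysis splits glucose into pyruvate in the cytosol, and its enzymes are abundant in many cancer cells. The hypoxia-inducible factors (HIFs) are dimers of an alpha subunit, encoded by Hif1a or Epas1, and the partner ARNT. With oxygen present, prolyl hydroxylases of the EGLN family mark the alpha subunit, the VHL ubiquitin ligase binds it and it is degraded, so that HIF activity is set largely at the protein level. In low oxygen the complex enters the nucleus and raises transcription of glycolytic enzymes, of kinases that keep pyruvate out of mitochondria and of genes for pH control, collagen modification, mitophagy and blood vessel tone.

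4T1 is a mouse mammary carcinoma line, grown here in RPMI-1640 with 10% FBS. RNA was measured on Affymetrix Mouse Genome 430 2.0 arrays, 1 array for each of 3 conditions. Regular-medium cells had no MSC factor and no stated culture time. Conditioned-medium cells were kept for 1 week in MSC-CM, medium conditioned by MSCs, which most likely stands for mesenchymal stem (or stromal) cells. Co-culture cells touched MSCs for 1 week and were then isolated, by a method that is not given in the sources used here, as the source of the MSCs is not. No oxygen level is named for any condition.

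With 1 array per condition, each value below is a difference between 2 arrays with no replicate error and no test. The deposited values are MAS5 signals, which are linear brightness values summarised per probe set and scaled per array. Medians over all 45037 probe sets were 71.6 to 79.8, and 38.0% to 41.4% of them had signals no higher than 42.4, the floor to which lower signals were set before log2. A gene was measured when its brightest probe set reached 149.3 on at least 1 array, and it counted as higher or lower in a comparison when the signals there were 2-fold or more apart and one of them reached 149.3. Of the 32 genes, 29 were measured; Eno2, Slc16a3 and Epas1 were not. Signals of different probe sets are not set against each other, since probes differ in affinity.

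The array carried 4T1 epithelial markers in every condition. Epcam had signals of 5196, 5009 and 5543 on the regular, conditioned and co-culture arrays, and Krt8 had 15049, 15956 and 16476. Of 9 measured epithelial markers the basal keratin Krt14 was lower in co-culture, with 1218, 1263 and 439.1, and none was higher. The basal keratin Krt5 was not measured (82.7, 66.3 and 32.5), and the junction genes Cldn4 and Cdh1 had log2 differences of 0.81 and 0.68. Of 18 MSC and fibroblast markers with a probe set, 10 were measured and 3 of these (Acta2, Bgn and Postn) were higher in co-culture than in regular medium, none lower. Acta2 was also at least 3.70-fold higher in conditioned medium, with signals of 42.4, 157.0 and 278.3. The summed signal of the 18 was 7392, 7817 and 11914 in the same order. Most of it came from Vcam1, Nt5e and Eng, with 2661, 2157 and 937.8 in regular medium, where no MSCs were present, so the sum was not read as a level of MSC RNA. The defining markers Col1a1 and Dcn stayed at or below the floor on all arrays, with co-culture signals of 41.9 and 35.2, and so did the leukocyte marker Ptprc and the endothelial marker Pecam1. The part of MSC RNA in the differences below was not tested, and contact with MSCs and the isolation step cannot be told apart. A change in RNA per cell and a change in the share of cells that express a gene cannot be told apart either in RNA from a whole culture.

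Co-culture against regular medium shows what 1 week of contact with MSCs, and the isolation after it, went with in these genes. Pfkfb3, Vldlr and Arnt were higher and Ankrd37 was lower, while none of the 12 measured glycolytic enzymes met the 2-fold rule. The 3 higher and 1 lower genes were 10.3% and 3.45% of 29 measured members, beside 5.81% and 2.76% of 9393 genes tested on the whole array. The median log2 difference of the 29 was -0.24, with quartiles of -0.48 and 0.47, beside a median of 0.07 and quartiles of -0.26 and 0.42 over 9452 measured genes. The medians were -0.38 over 12 enzymes and 0.47 over 9 HIF targets, beside 0.77 over the 10 measured MSC and fibroblast markers on the same arrays. Over the processing alternatives the enzyme median ran from -0.43 to -0.14, the latter with a choice of probe sets that left out Tpi1, Pgam1 and Ldha, among others. The HIF target median ran from 0.0046 to 0.47, the lowest with a filter at the 80th percentile of signal. The counts are small, and nothing about the list as a whole is read from them.

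**Figure D1:**
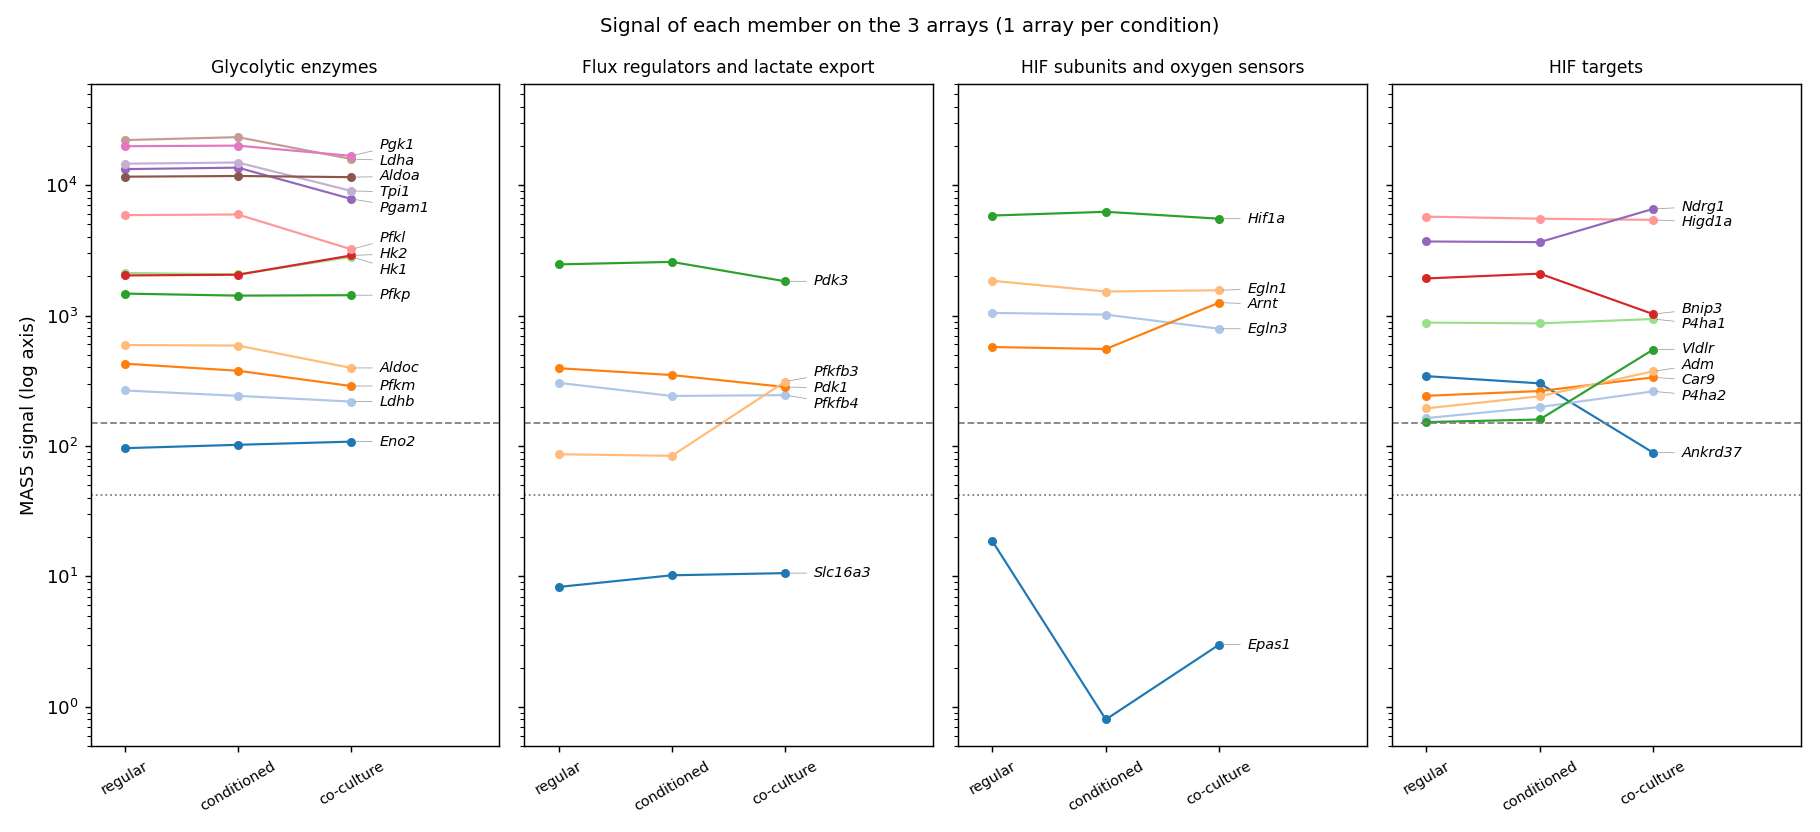
MAS5 signal (log axis) of the brightest probe set of each of the 32 genes on the regular-medium, conditioned-medium and co-culture arrays, 1 point per array, in 4 panels by role; the dashed line is 149.3 and the dotted line 42.4. Among the 29 measured genes the lines are nearly level from regular to conditioned medium, and the steepest steps from there to co-culture are Pfkfb3, Vldlr and Arnt upward and Ankrd37 and Bnip3 downward; the steep line of Epas1 (18.6, 0.8 and 3.0) lies wholly below the floor, where differences are not read.

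Promoter sequence is given for the genes whose brightest probe set differed at least 2-fold between co-culture and either other condition. Genes past 2-fold only on another probe set are not shown. Pgk1 and Ldha, enzyme genes long used as examples of HIF control, were added. Each line holds the 250 bases before a transcription start, read 5′ to 3′ on the strand of the gene from the RefSeq promoter table of mouse build GRCm38.p6. Capitals mark ACGTG and GCGTG, the core letters of the HIF response element, on either strand, where they read as CACGT and CACGC. The windows are chr2:11502091-11502340 and chr2:11553930-11554179 (both minus strand) for Pfkfb3, chr19:27216234-27216483 (plus) for Vldlr, chr3:95434140-95434389 (plus) for Arnt, chr8:45999851-46000100 (minus) for Ankrd37, chr7:138909507-138909756 (minus) for Bnip3, chrX:106186850-106187099 (plus) for Pgk1 and chr7:46845554-46845803 (plus) for Ldha. The second start listed for Vldlr, and the second for Ldha, are not shown.
Pfkfb3 inner start: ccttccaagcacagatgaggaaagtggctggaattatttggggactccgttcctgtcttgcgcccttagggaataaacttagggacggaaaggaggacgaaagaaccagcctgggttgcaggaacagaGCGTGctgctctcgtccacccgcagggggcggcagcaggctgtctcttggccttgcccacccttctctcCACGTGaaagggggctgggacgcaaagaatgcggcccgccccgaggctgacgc
Pfkfb3 outer start: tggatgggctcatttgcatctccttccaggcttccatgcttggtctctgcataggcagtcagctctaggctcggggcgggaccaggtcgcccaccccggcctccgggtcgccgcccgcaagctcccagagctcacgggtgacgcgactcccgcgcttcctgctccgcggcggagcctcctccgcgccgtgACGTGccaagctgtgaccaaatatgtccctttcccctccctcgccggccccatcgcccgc
Vldlr: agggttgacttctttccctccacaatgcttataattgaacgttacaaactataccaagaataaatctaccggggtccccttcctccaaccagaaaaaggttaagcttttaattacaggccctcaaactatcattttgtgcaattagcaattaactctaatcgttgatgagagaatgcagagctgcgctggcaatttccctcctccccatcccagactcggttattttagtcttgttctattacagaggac
Arnt: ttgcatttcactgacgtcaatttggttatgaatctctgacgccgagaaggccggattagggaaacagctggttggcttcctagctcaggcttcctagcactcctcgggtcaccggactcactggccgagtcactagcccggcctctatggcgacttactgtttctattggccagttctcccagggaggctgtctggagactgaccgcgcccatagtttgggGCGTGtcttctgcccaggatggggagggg
Ankrd37: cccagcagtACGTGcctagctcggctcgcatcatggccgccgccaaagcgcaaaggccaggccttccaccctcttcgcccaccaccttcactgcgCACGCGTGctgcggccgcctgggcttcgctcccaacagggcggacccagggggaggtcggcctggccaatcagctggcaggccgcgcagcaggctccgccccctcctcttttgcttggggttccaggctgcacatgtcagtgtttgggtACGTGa
Bnip3: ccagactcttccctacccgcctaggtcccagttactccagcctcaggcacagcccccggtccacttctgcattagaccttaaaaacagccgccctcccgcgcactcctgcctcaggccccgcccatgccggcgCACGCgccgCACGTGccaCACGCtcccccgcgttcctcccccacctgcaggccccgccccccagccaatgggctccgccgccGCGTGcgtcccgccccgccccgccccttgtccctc
Pgk1: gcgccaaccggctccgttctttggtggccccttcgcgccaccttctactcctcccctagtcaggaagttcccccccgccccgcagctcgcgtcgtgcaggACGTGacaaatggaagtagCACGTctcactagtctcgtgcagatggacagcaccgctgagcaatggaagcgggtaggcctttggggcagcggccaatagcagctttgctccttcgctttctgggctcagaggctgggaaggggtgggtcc
Ldha: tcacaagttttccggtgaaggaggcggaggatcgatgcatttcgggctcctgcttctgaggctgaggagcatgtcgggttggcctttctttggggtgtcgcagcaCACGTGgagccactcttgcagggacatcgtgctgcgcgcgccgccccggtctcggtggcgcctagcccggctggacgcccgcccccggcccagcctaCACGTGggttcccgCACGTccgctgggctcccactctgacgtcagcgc

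The Ankrd37 window held 2 matches to ACGTG, 1 of them 6 bases before the start and the other 241, and an overlapping pair of GCGTG matches between them. Bnip3 had 2 overlapping ACGTG matches, which form the palindrome CACGTG that is also the E-box bound by MYC and related factors, and 3 GCGTG matches. The Ldha window had 5 ACGTG matches over both strands, with 2 overlapping pairs among them, and the Pgk1 window had 2. Pfkfb3 had 2 overlapping ACGTG matches, again as CACGTG, at the inner start and 1 at the outer start. Arnt had 1 GCGTG and no ACGTG, and neither Vldlr window held either motif, which says only that these letters are not in these 250 bases. Genes with lower and with higher co-culture signals both carried the letters.

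Promoter windows were found for 30 of the 32 genes; Epas1 and Ndrg1 had none in the table. Of these 30 genes, 17 (56.7%) had ACGTG in at least 1 window, against 18.5% of 27025 genes in the table. With GCGTG counted too, the share was 90.0% against 41.5%, and for CACGTG it was 16.7% against 6.86%. By role, ACGTG was present for 6 of 13 enzymes, 3 of 5 flux regulators, 3 of 4 HIF subunits and sensors and 5 of 8 HIF targets. The list was built from known HIF targets and the base composition of the windows was not matched, so the difference is a description of the list.

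Among the glycolytic enzymes, those from phosphofructokinase to lactate dehydrogenase mostly had lower signals in co-culture, by less than 2-fold, while both hexokinases had higher ones. Of the 12 measured enzymes 10 had a lower signal in co-culture, or 83.3%, beside 44.0% of all measured genes. The 10 include Aldoa and Pfkp, with log2 differences of only -0.01 and -0.04 on the brightest probe set. With quantile normalization Aldoa had 0.09, Pgk1 went from -0.25 to -0.08 and the enzyme median was -0.31. Without it the median log2 difference of the 12 enzymes was -0.38, with quartiles of -0.61 and -0.03.

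The hexokinases trap glucose in the cell as its phosphate. Hk1 had signals of 2123, 2066 and 2819 on the regular, conditioned and co-culture arrays, and its second probe set had 1529, 1763 and 1386. Hk2, the hexokinase most often induced in tumours, had 2030, 2056 and 2891. Both thus stood highest in co-culture, with log2 differences of 0.41 and 0.51 from regular medium, but the second probe set of Hk1 had -0.14.

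Phosphofructokinase catalyses the committed step and is built from liver (Pfkl), muscle (Pfkm) and platelet (Pfkp) type subunits. Pfkl had signals of 5887, 5957 and 3220 in the same order of arrays, a log2 difference of -0.87, the enzyme difference nearest to the 2-fold rule. Its second probe set had 3640, 3775 and 1848 (-0.98) and a dim further one had 132.3, 128.5 and 42.7. All 3 Pfkl probe sets therefore placed co-culture lowest. Pfkm had 427.8, 377.4 and 288.1, a difference of -0.57. Pfkp had 1474, 1422 and 1433 on its brightest probe set and 947.7, 1043 and 441.7 on the next, which was 2.15-fold lower in co-culture. The remaining one had 136.6, 154.3 and 143.1, so the lower signal in co-culture was seen on 1 of 3 Pfkp probe sets.

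Aldolase splits the hexose into triose phosphates, and triose phosphate isomerase interconverts these. Aldoa had 11603, 11750 and 11511, and its 5 probe sets had log2 differences between -0.37 and 0.16 in co-culture. Aldoc, an aldolase known from brain, had 594.6, 588.8 and 396.6, a difference of -0.58, and its other probe set lay below the floor throughout. Tpi1 had 14603, 14906 and 9029, and its 3 probe sets had differences of -0.69, -0.76 and -0.47. The aldolase and isomerase signals in conditioned medium were close to those in regular medium on the brightest probe sets.

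The later steps yield ATP and lactate. Pgk1, the kinase of the first ATP-yielding step, had signals of 19880, 20083 and 16768, and its 3 probe sets gave -0.25, -0.16 and 0.06. Pgam1, phosphoglycerate mutase, had 13260, 13619 and 7838, a difference of -0.76 on its only probe set. Eno2, the neuronal enolase, had 96.2, 102.1 and 108.0 and was not measured by the rule. Ldha, which makes lactate from pyruvate, had 22151, 23328 and 15851, a difference of -0.48, and Ldhb, its counterpart favouring pyruvate, had 266.5, 242.3 and 219.0 (-0.28). For Pgam1 and Ldha the co-culture array stood below both others, which were near each other.

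Of the regulators of flux, Pfkfb3 was higher in co-culture and the other 3 measured genes had somewhat lower signals. Pfkfb3 encodes a bifunctional enzyme with high kinase activity that makes the allosteric activator of phosphofructokinase. Its signals were 86.4, 84.1 and 312.1, so that co-culture was 3.61-fold above regular medium and 3.71-fold above conditioned medium. The co-culture array was the only one on which it passed 149.3. A second Pfkfb3 probe set had 81.1, 38.3 and 37.9, below that threshold on all 3 arrays and lower in co-culture, so the call rests on 1 probe set. With the mean of both probe sets the log2 difference was 0.46.

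Pfkfb4, a related isoenzyme, had 304.8, 241.8 and 245.4, equally low on both arrays with an MSC exposure to within a log2 difference of 0.02. Pdk1, a kinase that inactivates pyruvate dehydrogenase and a well-known HIF target, had 394.8, 349.9 and 283.1 on its brightest probe set and 305.4, 263.5 and 294.8 on the next. Another Pdk1 probe set had 269.9, 339.1 and 102.6 and was 2.63-fold lower in co-culture. The last, dim one had 109.0, 83.5 and 32.5. Pdk3, another kinase of this family, had 2468, 2579 and 1831, a difference of -0.43. Slc16a3, the lactate exporter usually induced by HIF, stayed below the floor with 8.3, 10.2 and 10.6.

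Among the HIF subunits and sensors, Arnt was higher in co-culture while Hif1a depended on the probe set. Arnt encodes the shared partner of the alpha subunits. It had signals of 573.6, 554.1 and 1258, which is 2.19-fold above regular medium and 2.27-fold above conditioned medium. Its next probe sets had 461.1, 345.0 and 740.0 (0.68) and 308.4, 317.8 and 346.3 (0.17). The dim ones had 78.4, 51.8 and 143.2, and 63.5, 8.0 and 21.0. The 3 bright Arnt probe sets all had their highest signal in co-culture, and the mean over the 5 gave a log2 difference of 0.45, under the rule.

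Hif1a had 5845, 6246 and 5528 on its brightest probe set, a log2 difference of -0.08. A second probe set had 1185, 1301 and 364.7 and was 3.25-fold lower in co-culture. Another had 821.2, 880.2 and 866.9, a difference of 0.08. The last, dim one had 97.6, 121.2 and 35.1. The Hif1a probe sets thus fell into a pair without a difference near 2-fold and a pair with lower co-culture signals. Epas1, the alpha subunit also called HIF-2 alpha, was below the floor with 18.6, 0.8 and 3.0. Egln1, the main oxygen-sensing prolyl hydroxylase, had 1847, 1529 and 1563 (-0.24) and on a second probe set 1582, 1558 and 1014 (-0.64). Egln3, a hydroxylase that is itself a HIF target, had 1048, 1017 and 792.2 (-0.40) and on a second probe set 208.4, 265.7 and 192.1.

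The HIF targets outside glycolysis did not move together. Vldlr was higher, Ankrd37 was lower, and of the other 7 measured targets 5 had positive and 2 negative log2 differences. Vldlr, the receptor for very-low-density lipoprotein, which takes up lipid and is induced by HIF, had 152.4, 159.7 and 548.2, so co-culture was 3.60-fold above regular medium. A second probe set had 78.9, 108.6 and 220.8, 2.80-fold higher. The other 4 Vldlr probe sets were dim and reached 124.7, 101.4, 52.2 and 47.5 in co-culture, each its highest value of the 3 arrays. All 6 probe sets thus had their top signal in co-culture.

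Ankrd37, a small ankyrin-repeat protein whose gene is among the more reliably HIF-induced ones, went the other way with 343.1, 302.1 and 88.9. Co-culture was 3.86-fold below regular medium and 3.40-fold below conditioned medium, on the only Ankrd37 probe set. Bnip3, a mitochondrial receptor for mitophagy, had 1926, 2096 and 1026. This was 1.88-fold below regular medium, under the rule, and 2.04-fold below conditioned medium, past it. Ankrd37 and Bnip3 were the 2 measured targets with co-culture clearly below both other arrays.

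Ndrg1, a stress-induced regulator of growth and trafficking, had 3697, 3656 and 6575 and its 5 probe sets had log2 differences between 0.34 and 0.88, all positive. Adm, the vasodilator peptide adrenomedullin, had 194.4, 240.6 and 373.6 (0.94) and on its other probe set 186.3, 150.9 and 338.8 (0.86). P4ha2, a catalytic subunit of collagen prolyl hydroxylase, had 163.6, 198.8 and 262.3 (0.68). On their brightest probe sets, Ndrg1, Adm and P4ha2 each had their highest signal in co-culture without meeting the 2-fold rule against either other array. The other Adm probe set met the rule as higher against conditioned medium, but not against regular medium. P4ha1, the sister subunit, had 883.3, 871.0 and 941.0 on one probe set and 582.4, 619.8 and 249.2 on the other, the second being 2.34-fold lower. Car9, the surface carbonic anhydrase that is a standard hypoxia marker, had 242.6, 263.7 and 335.7 (0.47). Higd1a, a mitochondrial inner membrane protein, had 5734, 5529 and 5417 (-0.08).

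At a looser 1.5-fold rule, Ndrg1, Adm and P4ha2 joined the higher genes and Pfkl, Pgam1, Tpi1 and Bnip3 the lower ones. This made 6 higher and 5 lower of 29, beside 16.9% and 9.86% of all genes tested.

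Different probe sets of 1 gene gave different answers in some members, at a share near that of the array. Counting probe sets, 4 of 57 tested member probe sets were higher and 5 lower in co-culture than in regular medium, beside 5.37% and 5.49% of 16899 named probe sets tested. The 4 higher were the 2 of Vldlr and 1 each of Pfkfb3 and Arnt. The 5 lower were those of Ankrd37 and dimmer probe sets of Hif1a, P4ha1, Pfkp and Pdk1. In these last 4 genes the bright probe sets differed by at least 1 log2 unit among themselves, by 1.78 in Hif1a, 1.34 in Pdk1, 1.32 in P4ha1 and 1.17 in Pfkp. They were 4 of the 17 members with at least 2 bright probe sets, beside 912 of 4561 such genes on the array. Probe sets of 1 gene share the RNA and the array and are not replicates.

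**Figure D2:**
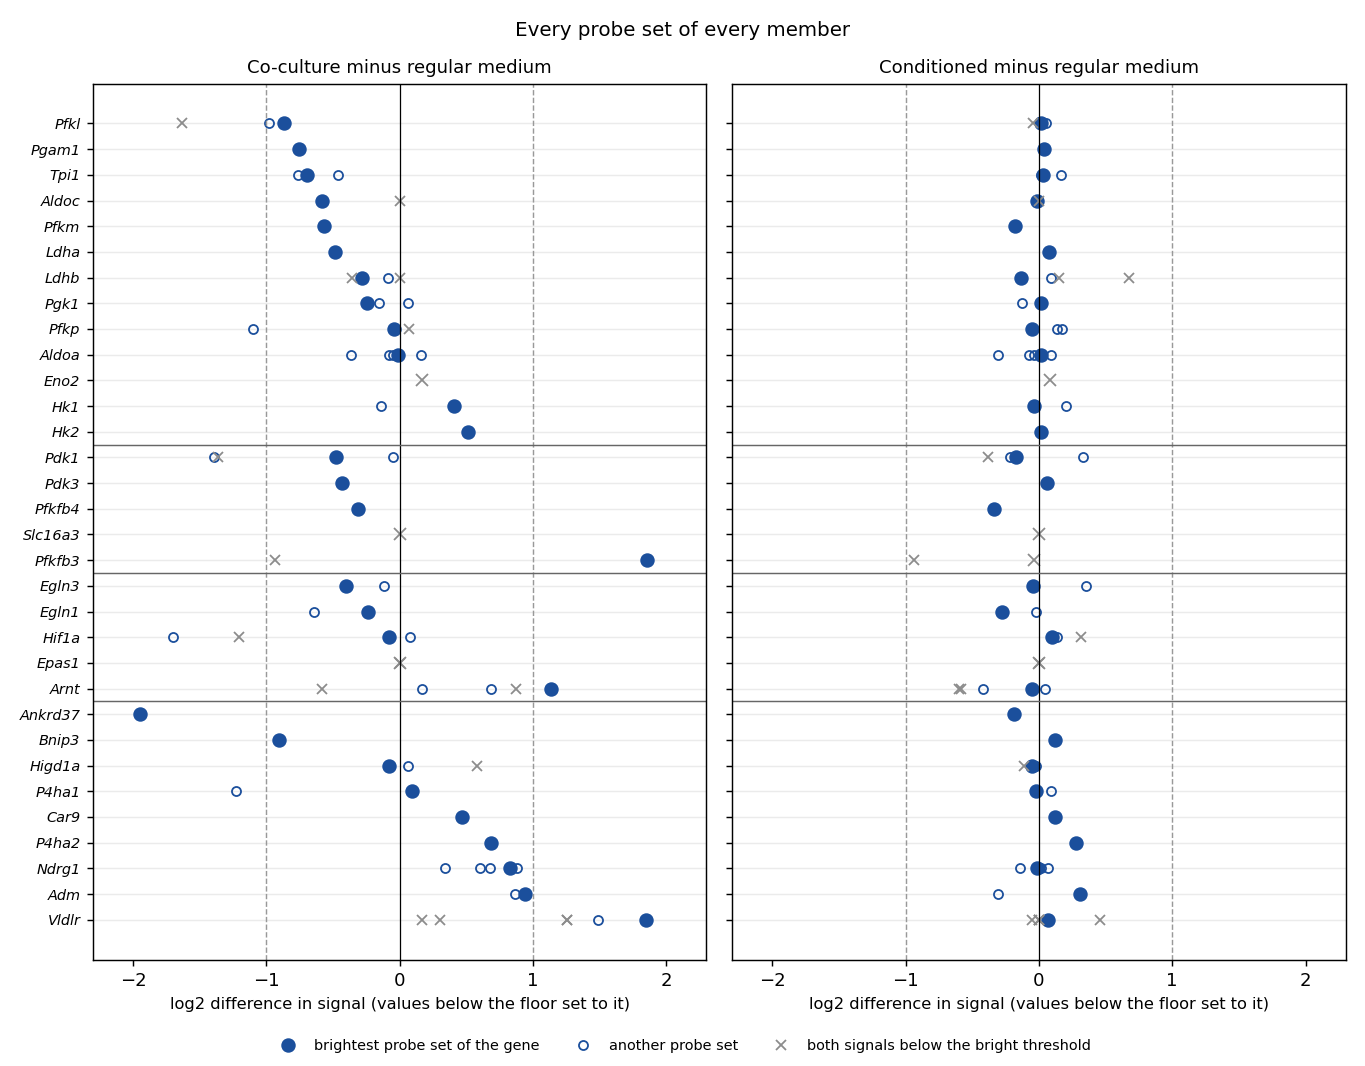
Log2 difference in signal of all 76 probe sets of the 32 genes, co-culture minus regular medium on the left and conditioned minus regular medium on the right, with genes grouped by role and dashed lines at the 2-fold rule; filled circles are the brightest probe set of a gene, open circles other probe sets and crosses those with both signals below 149.3. Hif1a, P4ha1, Pfkp and Pdk1 each have an open circle beyond the lower line while their filled circle lies inside it, and on the right no circle lies beyond either line.

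Conditioned medium was compared with regular medium for the factors that MSCs secrete. None of the 28 members tested was 2-fold higher or lower, beside 0.109% and 0.306% of 9152 genes tested, so a count of 0 is near that of the array as a whole. The log2 differences of the 29 measured members ran from -0.33 for Pfkfb4 to 0.31 for Adm, with a median of -0.01. Among the 12 enzymes they ran from -0.18 for Pfkm to 0.07 for Ldha. None of the 56 member probe sets tested met the rule either, beside 0.188% and 0.388% of all named probe sets tested.

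Setting co-culture against conditioned medium puts contact beside secreted factors, with both arrays at 1 week. On the brightest probe sets, Pfkfb3, Vldlr and Arnt were again higher, by 3.71-fold, 3.43-fold and 2.27-fold. Ankrd37 and Bnip3 were lower, by 3.40-fold and 2.04-fold. The 3 and 2 calls stand beside 5.83% and 2.6% of 9350 genes tested. Counting probe sets, 6 of 58 tested member probe sets were higher and 7 lower, without a share over all probe sets computed here. The 7 include dimmer probe sets of the enzymes Pfkl and Pfkp, 2.04-fold and 2.36-fold lower. The enzymes had a median of -0.32 and the HIF targets one of 0.35. This comparison shares the co-culture array with the first, so its values are not a second observation of it.

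The neighbouring steps of the pathway were taken from lists chosen by function. Genes of these lists were read on their brightest probe set alone. Pfkfb2, Pklr, Stc2 and Pck2, named here and below, have 4, 3, 3 and 2 probe sets, and the others were not compared. Of 7 measured isoforms outside the members, 6 were tested in co-culture against regular medium and 1 was higher, beside 5.81% of all genes tested. This was Pfkfb2, an isoenzyme of Pfkfb3, with signals of 100.6, 143.4 and 234.2. Pklr, a pyruvate kinase of liver and erythrocytes, had 36.1, 158.2 and 38.0 and was at least 3.73-fold higher in conditioned medium, from the floor in regular medium. Pkm, the pyruvate kinase of most tumours, had 17029, 17113 and 12467, a log2 difference of -0.45 in co-culture. The other 4 measured isoforms met no rule in any comparison.

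Among 4 measured genes of glucose and lactate transport, 1 met the 2-fold rule as lower in co-culture, beside 2.76% of all genes tested. All 4 had lower signals, beside 44.0% of measured genes, and the differences of Bsg and Slc16a1 were only -0.21 and -0.09. The gene called was Slc2a8, an intracellular glucose transporter, with 187.3, 178.6 and 87.7. Slc2a1, the main glucose importer and a textbook HIF target, had 2488, 2481 and 2065, and Slc16a1, a lactate transporter, had 10967, 10245 and 10288. Bsg, a chaperone of lactate transporters, had 6946, 7193 and 6016, and the Slc2a1 difference was -0.27.

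None of 13 measured genes that control HIF met the rule, and their median log2 difference in co-culture was 0.17, beside 0.07 over all measured genes. Positive differences were seen in 8 (61.5%) and negative ones, down to -0.43, in 5, beside 55.9% positive among all measured genes. The genes named next had the largest differences, all of them positive. Vhl, which recognises the hydroxylated alpha subunit, had 294.4, 274.1 and 440.9 (0.58). The coactivators Ep300 and Crebbp had differences of 0.50 and 0.48, and Os9, a lectin of endoplasmic reticulum quality control reported to bind HIF-1 alpha, had 0.43.

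A second set of HIF targets, separate from the members, also held differences of both signs. Of 23 measured, 2 (8.7%) were higher in co-culture and none lower, beside 5.81% and 2.76% of all genes tested. Positive differences were seen in 13 (56.5%) and negative ones in 10, beside 55.9% positive among all measured genes. The median was 0.08, beside 0.07 for all measured genes. Stc2, a secreted glycoprotein hormone, had 230.9, 220.7 and 558.9, and Nfil3, a basic leucine zipper factor, had 875.6, 827.7 and 2050. Vegfa, the angiogenic growth factor most often read as a HIF output, had 590.2, 596.6 and 959.5, a difference of 0.70 under the rule.

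**Figure D3:**
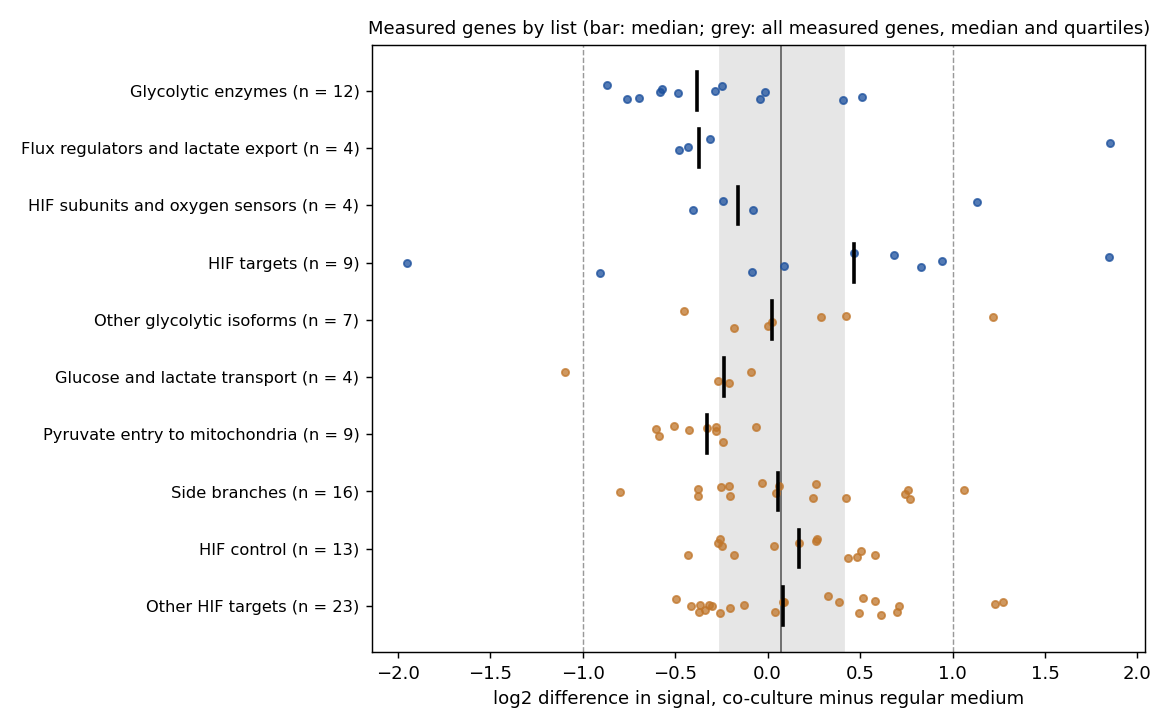
Log2 difference in signal, co-culture minus regular medium, of each measured gene (points, 1 per gene, shifted vertically at random) in the 4 member roles (blue) and 6 further lists (orange), with the list median as a bar and the median and quartiles of all 9452 measured genes in grey. The medians of glycolytic enzymes, flux regulators, HIF subunits and sensors, transport and pyruvate entry are -0.38, -0.37, -0.16, -0.24 and -0.33, and those of other glycolytic isoforms (0.02) and side branches (0.05) are also left of the array median of 0.07, while HIF targets spread from -1.95 to 1.85.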

How the data were processed

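RNA of 4T1 cells was hybridised to 3 arrays, 1 per condition, with conditions read from the labels. The authors deposited linear intensity values per probe set, which MAS5 made, per the submitters' processing notes; those notes name neither version nor scaling target. The 2%-trimmed array means were 496.6 to 497.3, so no scaling was added. Of 45037 probe sets, 34945 had 1 symbol in the platform annotation, 932 several and 9160 none. For 34741 of the 34945 the gene ID was found in RefSeq and the current symbol was taken from there, changed or not. Each gene was represented by its probe set of highest mean signal. Signals under the pooled 40th percentile (42.4) were raised to it, and the pooled 60th percentile (149.3) was the threshold for bright signals. Differences are in log2, and a fold from a signal at the floor is a lower bound. With 1 array per condition no test was possible, and the number of arrays limits precision. Named genes were all members, plus, in each further list, genes past 2-fold or, without any, up to 4 with the largest differences. Slc2a1, Slc16a1, Bsg, Pkm, Vegfa and markers beyond Epcam, Krt8, Col1a1, Dcn, Ptprc and Pecam1 were added after their values were seen. Members, lists and rules were chosen with earlier results of these data known. Alternatives covered scaling, floor, signal filter, probe set choice and fold rule. The calling step was tested on simulated data. Python 3.11.15, NumPy 2.4.6, pandas 2.3.3 and Matplotlib 3.10.9 were used.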

Additional observations from a re-analysis of the deposited data

How the results depend on the processing

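The 5 results of each comparison (members higher, members lower, and the medians of all members, enzymes and HIF targets) were recomputed under 12 alternatives, and for conditioned against regular medium none moved a count from 0 or a median by over 0.25. For co-culture against regular medium the counts of members higher and lower, 3 and 1, became 1 and 0 when the brighter signal had to reach the 80th percentile, 0 and 2 with the mean over all probe sets, 0 and 2 with the median probe set (the lower of a middle pair), and 6 and 5 with a 1.5-fold rule. For co-culture against conditioned medium the 3 and 2 became 1 and 1 with the 80th percentile and 5 and 5 with the 1.5-fold rule, the count higher became 0 with the mean over probe sets, and the count lower became 4 with the median probe set and 1 with a 3-fold rule. The 80th percentile leaves fewer genes tested and moved the HIF target median to 0.0046 against regular medium and to 0.041 against conditioned medium. The mean over probe sets moved the median of all members against conditioned medium from -0.03 to -0.34. The enzyme median stayed negative in co-culture under every alternative, from -0.43 to -0.14 against regular and from -0.39 to -0.12 against conditioned medium. The -0.14 and -0.12 came without probe sets whose names end in _x_at, _s_at or _a_at. That setting left no probe set for Tpi1, Pgam1 and Ldha, among others, and only a dim one for Pfkl. It therefore rests on few enzymes, without those of the largest differences. Pfkfb3 turned from 1.85 to -0.94 with the median probe set, which is its dim second one. Vldlr kept its direction (1.05 to 1.86), as did Ankrd37 (-2.00 to -1.20) and Arnt (0.45 to 1.13). Vldlr and Ankrd37 stayed past 2-fold throughout and lost calls only where the brighter signal was under the brightness threshold. Arnt lost its calls where its difference was under the fold rule, as with the mean over probe sets (0.45) and the median probe set (0.68). Vldlr lost its call under 4 alternatives, Arnt under 3 and Ankrd37 under 1. For conditioned against regular medium over all genes, quantile normalization gave 15 higher and 24 lower in place of 10 and 28. No scaling moved the median of all measured genes by as much as 0.1. No paired analysis was possible because each condition has 1 array and the labels carry no replicate numbers. The number of arrays limits every value, and Pfkfb3, Vldlr and Ankrd37 each lay near or under 149.3 on at least 1 array.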

Other observations

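None of 9 measured genes of pyruvate entry into mitochondria met the 2-fold rule in co-culture against regular medium. All 9 had lower signals there, beside 44.0% of all measured genes, and their median log2 difference was -0.33, beside 0.07. Pdp1 and Pdp2, phosphatases that switch pyruvate dehydrogenase on, had differences of -0.60 and -0.51, Pdhx, a structural component of the complex, had -0.59 and Dlat, its acetyl transferase, had -0.42. Pdk2 and Pdk4, kinases of the same complex, lay below the floor on all arrays. In conditioned against regular medium the median of the 9 measured genes was 0.0048, with 5 positive and 4 negative differences. Pdp2 and Dlat had -0.46 and -0.23 there, while Pdp1 and Pdhx had 0.03 and 0.06. The lower signals of Pdp2 and Dlat were thus not confined to co-culture.

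Of 16 measured genes of side branches, 1 (6.25%) was higher in co-culture than in regular medium and none lower. The shares over all genes tested were 5.81% and 2.76%. The median log2 difference of the 16 was 0.05, beside 0.07 over all measured genes. Pck2, the mitochondrial enzyme that turns oxaloacetate into phosphoenolpyruvate, had signals of 1141, 1197 and 2387 in regular medium, conditioned medium and co-culture. In the pentose phosphate pathway, Pgd had a log2 difference of -0.80, while Pgls and Rpia had 0.75 and 0.77, so neighbouring enzymes of that pathway stood on opposite sides; these 3 were named after their values were seen.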
